A study of Mus musculus with 6 samples.

Results

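The Hox cluster genes are the homeobox genes of the mouse HoxA, HoxB, HoxC and HoxD clusters. They were taken from the deposited table of reads per locus as every locus whose symbol is Hox, a cluster letter and a number, which gave 39 genes of 53445 loci, 11 in HoxA, 10 in HoxB, 9 in HoxC and 9 in HoxD. No symbol was listed more than once, so each gene is 1 locus. Their levels in LSK cells, the Lin-Sca+Kit+ fraction of bone marrow that holds hematopoietic stem cells and multipotent progenitors, are described by cluster and position and then compared between genotypes.

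The libraries were poly(A) RNA-Seq of LSK cells from 3 OgaVav-Cre and 3 wildtype mice, all female, about 12 weeks old by their labels and of C57BL/6 background, with at least 20000 sorted cells from each mouse. Oga encodes the enzyme that removes O-GlcNAc from proteins. OgaVav-Cre mice came from breeding Oga fl/fl mice, whose Oga alleles are floxed, with mice carrying the Vav-iCre transgene. The transgene is active throughout the hematopoietic lineage, so the deletion is not limited to LSK cells. The alleles that the wildtype mice carried are not spelled out in their labels.

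Hox genes encode transcription factors that bind DNA through the homeodomain, which is coded by the homeobox. Within a cluster the genes are numbered from the 3′ to the 5′ end into 13 paralog groups, and members of 1 paralog group in different clusters are more alike than neighbours in 1 cluster. In the embryo the clusters pattern the body axis. In blood, genes of HoxA and HoxB are known from stem and progenitor cells, fall with differentiation, and act together with TALE homeodomain cofactors such as Meis1.

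Values of single libraries are listed throughout in the order of the replicate numbers 1 to 3. The counts summed to between 19318056 and 27064389 reads for each library, and 3 reads, taken as the floor of detection, correspond to 0.109 to 0.156 CPM (reads of a locus relative to the library size, scaled by edgeR's TMM method). Mgea5, the former symbol under which Oga is listed, had 104, 109 and 110 reads for OgaVav-Cre and 3164, 2970 and 2736 reads for wildtype, a log2 fold change of -5.01 (adjusted p = 5.88e-05, edgeR). All 4 listed markers of LSK cells (Kit, Ly6a, Cd34 and Flt3) were abundant. Kit, between 251 and 602 CPM, and Ly6a, the gene of Sca-1, between 42.3 and 218 CPM, belong to the sorting gate. Cd34 and Flt3 were not used in the sorting. Markers of other cells also differed between libraries. OgaVav-Cre replicate 3 had the highest level of each of the 10 lineage-positive markers among the OgaVav-Cre libraries (summed 2239 CPM, against 274 to 891 CPM in the other libraries), and OgaVav-Cre replicate 1 had the highest sum of 5 plasma cell markers (111330 CPM, against 11820 to 55411 CPM). The sums over 7 stromal and 4 endothelial markers were between 58.6 and 95.6 CPM and between 113 and 132 CPM. Cxcl12, one of the stromal markers, was higher in OgaVav-Cre at an unadjusted p below 0.05 (log2 fold change 0.84, adjusted p = 0.412, edgeR). The 6 markers of multipotent and lymphoid-primed progenitors summed to between 1139 and 1595 CPM.

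The Hox code of LSK cells was carried by the middle of HoxA, with a smaller share from the 3′ part of HoxB. To compare genes, reads were scaled by TMM and by the length of the locus. On this scale, CPM per kb, HoxA held 82.8% of the summed Hox level as a mean over the 6 libraries, HoxB 16.4%, HoxC 0.698% and HoxD 0.0518%. The HoxA share was between 79.96% and 84.5% in all 6 libraries and the HoxB share between 14.95% and 19.01%. The HoxC share ran from 0.283% to 1.51%, with means of 1.0% ± 0.521 in OgaVav-Cre and 0.395% ± 0.0988 in wildtype cells (SD, n = 3) and overlapping libraries, and the HoxD share from 0% to 0.180%. Of the 39 genes, 13 had enough reads for a test between genotypes, 8 in HoxA (Hoxa2 to Hoxa7, Hoxa9 and Hoxa10) and 5 in HoxB (Hoxb2 to Hoxb6). Another 8 had more than 3 reads in at least 1 library but were too low to test, 7 never passed 3 reads, and 11 had no reads in any library.

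**Figure D1:**
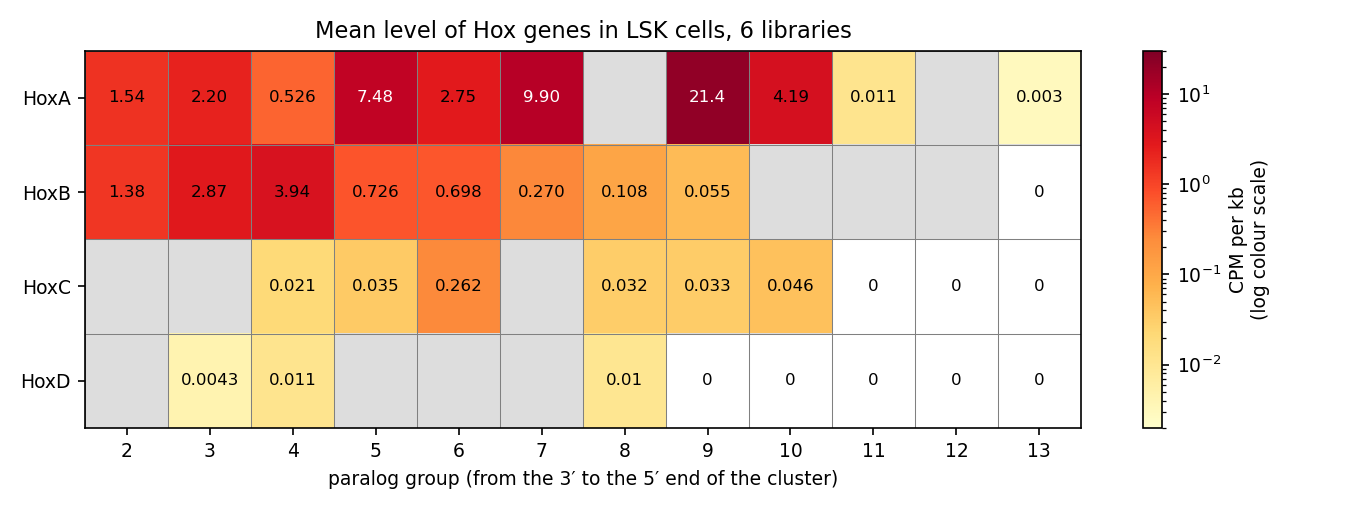
Mean level of the Hox genes of paralog groups 2 to 13 over the 6 libraries, in TMM-scaled CPM per kb on a log colour scale, with clusters as rows and paralog groups as columns. White cells are genes without reads and grey cells are positions with no gene in the mouse cluster. The levels peak at Hoxa9 (21.4), and HoxD holds at most 0.011.

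Hoxa9, a factor needed for normal repopulation by stem cells and a frequent partner of Meis1 in leukemia, was the most abundant Hox gene in each library. It had 1825, 1996 and 1332 reads for OgaVav-Cre and 1241, 2302 and 2274 reads for wildtype. Its mean level was 21.4 CPM per kb, which is above that of 87.2% of the 22032 loci tested, and it made up 35.0% of the summed Hox level. Between libraries its share of that sum lay between 33.0% and 38.3%. The Hoxa9 locus is chr6:52173099-52181088 in mm9, read from the minus strand.

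The other genes of paralog group 9 were near or below the floor. Hoxb9 had at most 7 reads in a library, Hoxc9 at most 3 and Hoxd9 none. Over all libraries Hoxa9 had 393 times as many reads per length as Hoxb9 (exact 95% interval 257 to 636, counting error only).

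Reads of 50 bases can be given to the wrong gene where Hox transcripts share a stretch of that length. Among all annotated coding transcripts of the 39 genes, no word of 50 bases from Hoxa9 occurred in another Hox gene. Shared words of this length were common for Hoxd4 (42.2% of its words, shared with Hoxd3), Hoxb8 (37.4%, shared with Hoxb7), Hoxb7 (26.97%) and Hoxd3 (20.5%), whose annotated transcripts overlap pairwise, and reached 9.27% in Hoxa2 and 4.12% in Hoxa3. All other genes were under 0.2%, so the levels of most members did not rest on words that a second Hox gene also holds.

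Next to Hoxa9 in level stood Hoxa7, Hoxa5 and Hoxa10. Hoxa7, which is coexpressed with Hoxa9 in leukemias driven by MLL fusions, had 1003, 1021 and 811 reads for OgaVav-Cre and 663, 717 and 959 reads for wildtype. Hoxa9 was above Hoxa7 in all 6 libraries, by 1.64 to 3.21 times, and the lowest Hoxa9 level was above the highest Hoxa7 level. This was the only pair of neighbours in the order of the 13 tested genes whose ranges over the libraries did not overlap. Hoxa5, which is known to act in the choice between myeloid and erythroid fates, had a mean of 7.48 CPM per kb, and Hoxa10, which drives progenitor growth when overexpressed, had 4.19.

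The remaining tested genes followed without a sharp step. In order of mean level, in CPM per kb, they were Hoxb4 (3.94), Hoxb3 (2.87), Hoxa6 (2.75), Hoxa3 (2.20), Hoxa2 (1.54), Hoxb2 (1.38), Hoxb5 (0.726), Hoxb6 (0.698) and Hoxa4 (0.526). Several neighbours could not be placed: Hoxa10 was above Hoxb4, Hoxb3 above Hoxa6, and Hoxb6 above Hoxa4, each in 3 of 6 libraries. By its mean level Hoxa4 was above 15.1% of the loci tested.

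**Figure D2:**
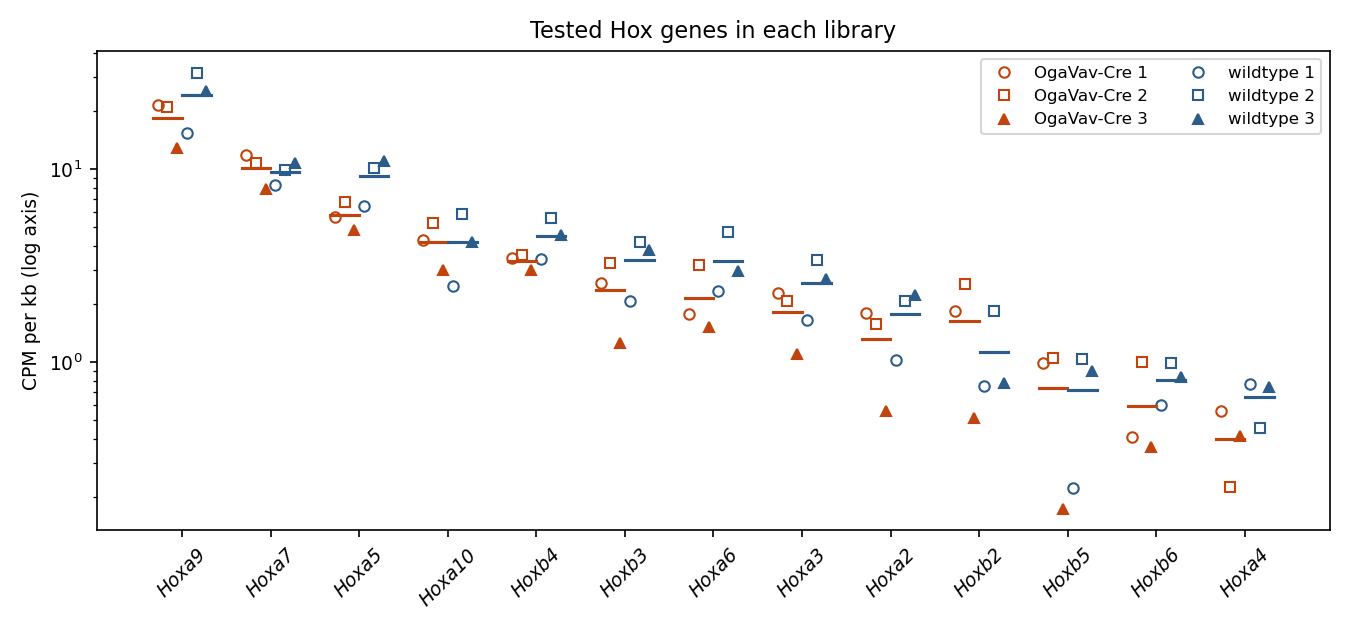
Level of each of the 13 tested Hox genes in every library, in TMM-scaled CPM per kb on a log axis, with OgaVav-Cre libraries in red, wildtype libraries in blue and a bar at the mean of each genotype (n = 3). Both genotypes overlap for every gene, and OgaVav-Cre replicate 3 and wildtype replicate 1 are low for most of them.

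Along HoxA the level did not rise or fall steadily with position, and its 5′ limit was abrupt. Toward the 3′ end Hoxa2 and Hoxa3 were low, Hoxa4 was lower still, and Hoxa5 was 14.2 times as high as Hoxa4 per length (exact 95% interval 11.8 to 17.3), although only 10000 bases lie between their loci. The highest levels were from Hoxa5 to Hoxa10, though Hoxa6 in this stretch was at 2.75 CPM per kb, beside 2.20 for Hoxa3. The listed length of Hoxa6 is 699 bases, whereas a single annotated Hoxa6 exon has 1194 bases, so its level depends on the length used. Hoxa10 had 261 to 661 reads in a library, whereas Hoxa11, whose locus begins 1244 bases beyond it, had 2 reads in OgaVav-Cre replicates 2 and 3 and none in the others. Per length this was a step of 331 times (exact 95% interval 129 to 1215). Hoxa13, at the 5′ end of the cluster, had 1 read in 1 library.

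In HoxB the level peaked at paralog group 4 and declined toward both ends. Hoxb4, which expands stem cells in culture when it is overexpressed, had 232, 267 and 244 reads for OgaVav-Cre and 215, 318 and 319 reads for wildtype. Toward the 5′ end the mean level fell from Hoxb4 through Hoxb5 and Hoxb6 to Hoxb7 (0.270), Hoxb8 (0.108) and Hoxb9 (0.0551). Hoxb1 and Hoxb13, the outermost genes, had no reads. Hoxb5, whose reporter has been used to mark long-term stem cells in mice, had the largest standard error of the log2 fold change among the tested genes (0.752), with 42, 50 and 9 reads for OgaVav-Cre and 9, 38 and 40 reads for wildtype. Its low libraries, OgaVav-Cre replicate 3 and wildtype replicate 1, came 1 from each genotype.

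HoxC and HoxD were close to silent. HoxC had 118 reads in all 6 libraries together, of which Hoxc6 had 61, with 25, 20 and 3 reads for OgaVav-Cre and 4, 6 and 3 reads for wildtype. Its 2 highest libraries were both OgaVav-Cre, but the genotypes overlapped and Hoxc6 was too low for the test. Hoxc4, Hoxc5, Hoxc8, Hoxc9 and Hoxc10 had at most 7 reads in a library and Hoxc11, Hoxc12 and Hoxc13 had none. HoxD had 12 reads in all, 4 each for Hoxd3, Hoxd4 and Hoxd8, and since Hoxd3 and Hoxd4 overlap and had the same counts in every library, these may be the same reads counted at both loci. Hoxd1 and Hoxd9 to Hoxd13 had no reads, which at this depth allows up to the floor of 3 reads in each library.

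The paralog groups therefore differed in how many genes carried them. Groups 2 to 6 each had 2 tested members, 1 from HoxA and 1 from HoxB, whereas groups 7, 9 and 10 had 1 from HoxA alone, and groups 8, 11, 12 and 13 had none. In groups 3 and 4 the HoxB gene was higher in all 6 libraries, with Hoxa3 at 0.633 to 0.889 and Hoxa4 at 0.0625 to 0.224 times the level of the HoxB gene in CPM per kb. In groups 5 and 6 it was the reverse, with Hoxa5 at 5.78 to 28.9 times the level of Hoxb5 and Hoxa6 at 3.16 to 4.81 times that of Hoxb6. In group 2 the order was not fixed. Hoxa7 had 36.4 times as many reads per length as Hoxb7 (exact 95% interval 27.4 to 49.4).

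Loss of Oga changed no Hox gene past the cutoffs. The counts of all 22032 tested loci were compared with edgeR's quasi-likelihood test, and a locus was called changed at an adjusted p below 0.05 (Benjamini-Hochberg) and a log2 fold change beyond 1 or -1. None of the 13 tested Hox genes was called, against 0.0318% of all loci (6 loci lower, 0.0272%, and 1 higher, 0.00454%), and the smallest adjusted p from edgeR was 0.437. DESeq2 also called 0, against 0.527% of all loci, and limma-voom called 0. At an unadjusted p below 0.05, edgeR had 1 Hox gene lower and 0 higher, where 6.27% of all loci were lower and 4.38% higher. Libraries of the genotypes overlapped for all 13 genes, where 17.5% of all loci did not overlap (9.97% lower and 7.5% higher). With 3 mice for each genotype, the smallest two-sided p of an exact permutation test on a single value is 0.1.

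Hoxa5 was the gene with the unadjusted p below 0.05. It was at 10.95, 13.1 and 9.38 CPM for OgaVav-Cre and at 12.4, 19.6 and 21.2 CPM for wildtype. Wildtype replicate 1 lay among the OgaVav-Cre libraries, below replicate 2, and both other wildtype libraries were higher than all OgaVav-Cre libraries. The log2 fold change was -0.67 (standard error 0.242, 95% interval -1.23 to -0.11, adjusted p = 0.437, edgeR), with means of 11.1 ± 1.87 CPM in OgaVav-Cre and 17.7 ± 4.68 CPM in wildtype cells (SD, n = 3). As a share of the summed Hox level, Hoxa5 made up 10.9% ± 1.68 in OgaVav-Cre and 13.9% ± 1.58 in wildtype cells (SD, n = 3), with overlapping libraries.

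The other abundant genes did not pass either threshold. Hoxa9 was at 80.9, 79.0 and 48.6 CPM for OgaVav-Cre and at 58.2, 119 and 96.2 CPM for wildtype. Both genotypes thus had a low library, and the OgaVav-Cre values fell inside or below the wildtype range. Its mean was 69.5 ± 18.1 CPM in OgaVav-Cre and 91.3 ± 30.9 CPM in wildtype cells (SD, n = 3), a log2 fold change of -0.39 (standard error 0.290, 95% interval -1.07 to 0.28, adjusted p = 0.633, edgeR).

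Hoxa7 and Hoxa10, which flank Hoxa9, had log2 fold changes of 0.07 (95% interval -0.36 to 0.50) and 0.01 (95% interval -0.76 to 0.78) by edgeR, and the sign of both changed with the scaling of the libraries. Hoxa10 had 480, 661 and 408 reads for OgaVav-Cre and 261, 562 and 490 reads for wildtype, with the highest and the lowest library both from the wildtype mice in CPM. Hoxa7 was at 38.2 ± 7.69 CPM in OgaVav-Cre and 36.3 ± 4.82 CPM in wildtype cells, and Hoxa10 at 20.8 ± 5.65 and 20.7 ± 8.46 CPM (SD, n = 3). Together with Hoxb4, these were the 3 of 13 tested genes whose 95% interval lay within a log2 fold change of -1 to 1. Hoxb4 was at 9.92 ± 0.891 CPM in OgaVav-Cre and 13.4 ± 3.21 CPM in wildtype cells (SD, n = 3), with a log2 fold change of -0.43 (95% interval -0.94 to 0.08, adjusted p = 0.520, edgeR).

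For the lower genes the intervals were wide. Hoxb3, which promotes progenitor growth when overexpressed, had 266, 377 and 158 reads for OgaVav-Cre and 203, 371 and 412 for wildtype. It was at 10.8 ± 4.65 CPM in OgaVav-Cre and 15.4 ± 5.18 CPM in wildtype cells (SD, n = 3), a log2 fold change of -0.51 (95% interval -1.41 to 0.39, edgeR). Hoxa3, known for its part in forming the thymus, had 386, 390 and 225 reads for OgaVav-Cre and 262, 489 and 474 for wildtype. It was at 13.6 ± 4.73 and 19.2 ± 6.58 CPM (SD, n = 3), a log2 fold change of -0.50 (95% interval -1.30 to 0.29). In both genes the lowest libraries were OgaVav-Cre replicate 3 and wildtype replicate 1. Hoxa6 had 28, 56 and 29 reads for OgaVav-Cre and 35, 64 and 49 for wildtype. It was at 1.51 ± 0.622 and 2.34 ± 0.872 CPM (SD, n = 3), a log2 fold change of -0.63 (95% interval -1.63 to 0.36). None of these intervals lies on one side of 0, and their lower ends do not exclude a fall to less than 50% of the wildtype level.

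The 3′ genes Hoxa2 and Hoxb2, both known from the hindbrain, gave opposite signs. Hoxa2 had 72, 71 and 27 reads for OgaVav-Cre and 39, 71 and 93 reads for wildtype, with 2.33 ± 1.18 and 3.15 ± 1.15 CPM (SD, n = 3) and a log2 fold change of -0.44 (95% interval -1.59 to 0.72, edgeR). Hoxb2 had 68, 105 and 23 reads for OgaVav-Cre and 26, 58 and 30 reads for wildtype, with 2.67 ± 1.68 and 1.83 ± 1.02 CPM (SD, n = 3) and a log2 fold change of 0.55 (95% interval -0.89 to 1.99). Both ranges were wide within each genotype. The difference between Hoxa2 and Hoxb2 was not tested.

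Of the 3 genes left, Hoxa4 had 20, 9 and 18 reads for OgaVav-Cre and 26, 14 and 28 reads for wildtype, with a log2 fold change of -0.72 (95% interval -1.85 to 0.41, edgeR). Its lowest library in each genotype was replicate 2, unlike the other tested genes. Hoxb6 had 13, 36 and 14 reads for OgaVav-Cre and 18, 27 and 28 reads for wildtype, with a log2 fold change of -0.44 (95% interval -1.64 to 0.75), and Hoxb5 had one of 0.02 (95% interval -1.72 to 1.77), whose sign changed with the scaling. At 9 to 50 reads, these values could show large changes only.

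**Figure D3:**
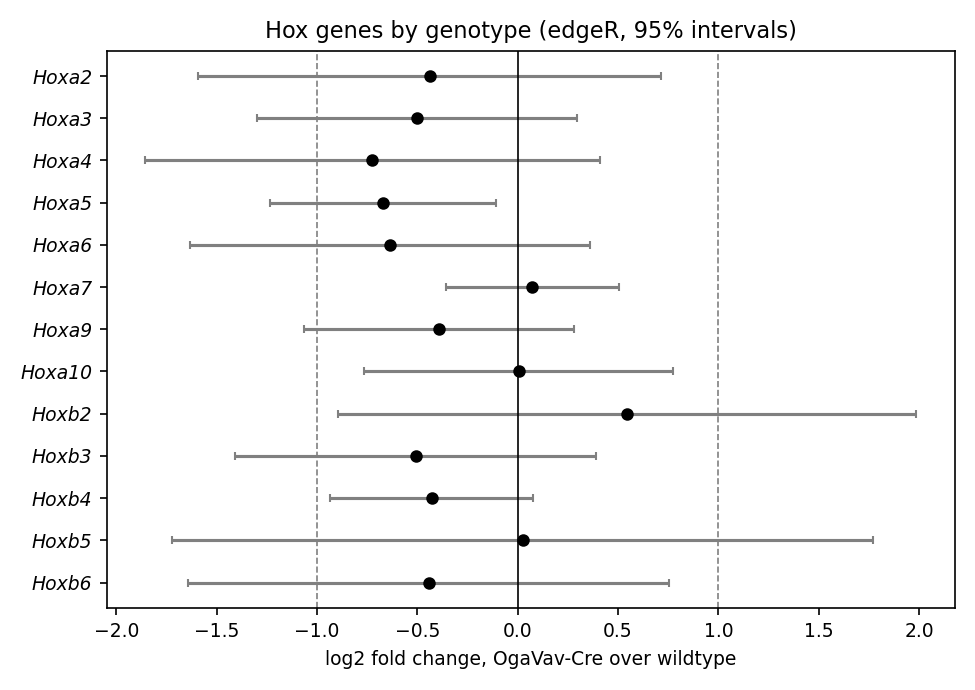
Log2 fold change of the 13 tested Hox genes, OgaVav-Cre over wildtype, with 95% intervals from edgeR (n = 3 and 3). Dashed lines mark -1 and 1. The interval of Hoxa5 alone lies on one side of 0, and Hoxa7, Hoxa10 and Hoxb5 change sign with the scaling of the libraries.

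Most of the fold changes were below 0 without passing the test. The median over the 13 genes was -0.44, beside 0.0041 over all loci tested. In all, 9 of 13 were below 0, where 49.5% of all loci were, and the same 9 were below -0.25, where 25.7% of all loci were. The genes share libraries and chromatin domains, so these are counts and no test was made of them. The summed level of the 39 genes was 60.6, 63.7 and 38.3 CPM per kb for OgaVav-Cre and 46.0, 83.0 and 71.6 for wildtype. The OgaVav-Cre mean was 81.1% of the wildtype mean, with both genotypes overlapping.

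The same libraries were low for nearly all of the genes. In 12 of 13 tested genes OgaVav-Cre replicate 3 was the lowest of its genotype and wildtype replicate 1 the lowest of its own, whereas 15.3% of all loci tested had this pair of lowest libraries. The long-term stem cell markers had a similar order, with 5 of 8 lowest in OgaVav-Cre replicate 3 among its genotype and 7 of 8 lowest in wildtype replicate 1, where 39.1% and 35.4% of all loci were. In the other direction, 1 of 8 was highest in OgaVav-Cre replicate 3 among its genotype. The sum of the 8 was 527, 719 and 263 CPM for OgaVav-Cre and 399, 944 and 663 CPM for wildtype. Hlf, a transcription factor of stem cells, made up most of this sum in both low libraries. It had 4563 reads in OgaVav-Cre replicate 3 and 5601 in wildtype replicate 1, below the 7662 to 11985 reads of the other libraries. The mean log2 level weighs each marker alike. Relative to the mean of all libraries it was -0.063, 0.44 and -0.64 for OgaVav-Cre and -0.42, 0.58 and 0.10 for wildtype. The 4 listed markers of LSK cells (Kit, Ly6a, Cd34 and Flt3) were low in the same libraries. In OgaVav-Cre replicate 3, 4 of 4 were lowest, and 3 of 4 in wildtype replicate 1. Their sums were 1534, 1636 and 841 CPM for OgaVav-Cre and 1050.1, 1620.1 and 1187 CPM for wildtype. The 6 markers of multipotent and lymphoid-primed progenitors went the other way. Their sums were 1403, 1139 and 1450 CPM for OgaVav-Cre and 1595, 1219 and 1210 CPM for wildtype. Of these 6, 1 was lowest in OgaVav-Cre replicate 3 and 1 in wildtype replicate 1, and Flt3 stands in both lists. Lineage-positive markers were highest in OgaVav-Cre replicate 3, but not in wildtype replicate 1, whose sum of 615 CPM lay between 424 and 891 CPM in the other wildtype libraries. In bulk RNA, fewer cells of a type and less RNA for each cell cannot be told apart.

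**Figure D4:**
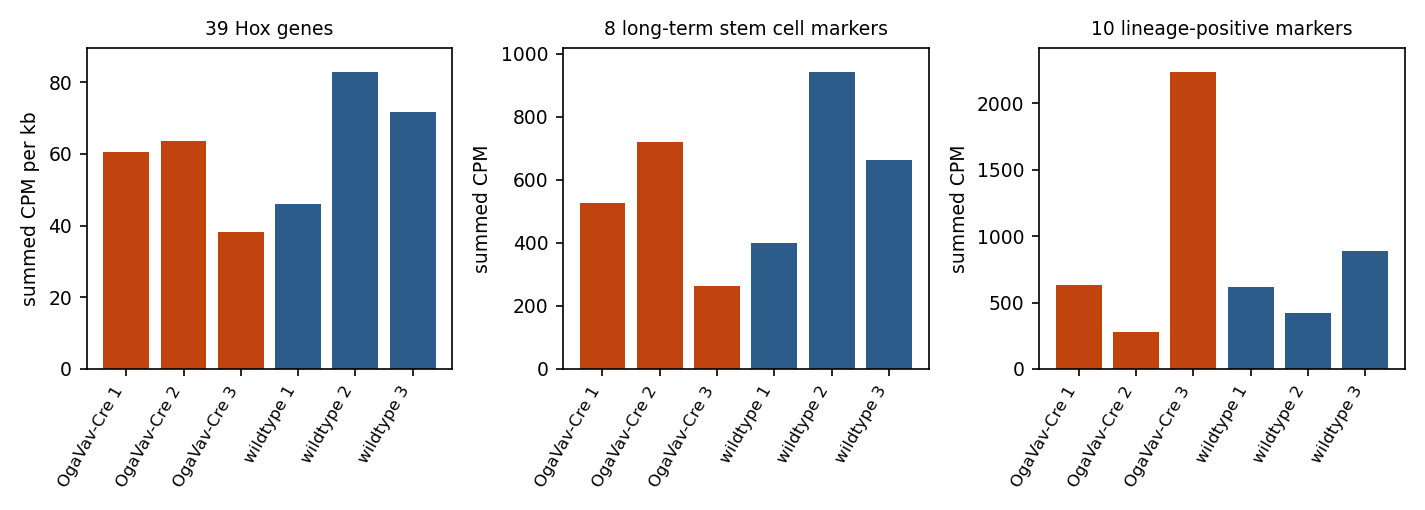
Summed level in each library of the 39 Hox genes (CPM per kb), of 8 long-term stem cell markers (CPM) and of 10 lineage-positive markers (CPM), with OgaVav-Cre in red and wildtype in blue. OgaVav-Cre replicate 3 and wildtype replicate 1 have the lowest Hox sums (38.3 and 46.0) and the lowest stem cell marker sums (263 and 399), and OgaVav-Cre replicate 3 has the highest lineage-positive sum (2239). In both of these libraries most of the stem cell marker sum is from Hlf.

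The genotype comparison moved with the library left out. Without OgaVav-Cre replicate 3 the median log2 fold change of the Hox genes was -0.18, and without wildtype replicate 1 it was -0.60, beside -0.44 with all libraries. Other libraries moved it too. It was -0.52 and -0.50 without OgaVav-Cre replicate 1 or 2, and -0.25 and -0.35 without wildtype replicate 2 or 3. These medians are over 13 to 15 genes, as the filter let in different members. With OgaVav-Cre replicate 3 left out, Hoxa5 had a log2 fold change of -0.56. None of the 14 Hox genes tested was then lower at an unadjusted p below 0.05 in edgeR, where 8.09% of all loci were. Hoxc6 then passed the filter, but only through OgaVav-Cre replicates 1 and 2 (25 and 20 reads, against 4, 6 and 3 for wildtype). Its direction was thus set by the filter and the library left out, and nothing is concluded from it. It was the 1 Hox gene higher at an unadjusted p below 0.05 (log2 fold change 2.18, adjusted p = 0.258, edgeR), where 6.2% of all loci were. With wildtype replicate 1 left out, 3 of 15 Hox genes were lower at an unadjusted p below 0.05 in edgeR, Hoxa5 (-0.87), Hoxa9 (-0.63) and Hoxb4 (-0.59). Of these 15 genes 0 were higher, where 7.13% of all loci were lower and 7.4% higher. None of the 15 was called. With the mean level of the stem cell markers as a covariate, Hoxa5 was at -0.57 (adjusted p = 0.315, edgeR) and the median was -0.32. Hoxa5 was then the 1 Hox gene lower at an unadjusted p below 0.05 and 0 were higher, where 7.34% of all loci were lower and 5.61% higher. Whether the stem cell content of the sorted cells has a part in the Hox levels was not tested beyond this fit.

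The TALE cofactors and chromatin regulators that work with Hox genes were expressed, and none was called changed. Of 35 genes in these lists, 30 could be tested, with a median log2 fold change of -0.10. At an unadjusted p below 0.05, edgeR had 3 lower and 1 higher, beside the 6.27% and 4.38% of all loci. Meis1, the main partner of Hoxa9 in stem cells, was at 123, 156 and 80.9 CPM for OgaVav-Cre and at 99.0, 177 and 138 CPM for wildtype. It had the order of libraries of the Hox genes, and its log2 fold change was -0.20 (95% interval -0.85 to 0.45, adjusted p = 0.810, edgeR).

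The cofactor and regulator genes with an unadjusted p below 0.05 had genotypes that did not overlap in CPM. Of all loci tested, 17.5% did not overlap (9.97% lower and 7.5% higher). Among them Pbx4, a TALE protein of the Pbx family, was at 8.41 ± 2.05 and 12.96 ± 1.70 CPM (SD, n = 3), a log2 fold change of -0.62 (adjusted p = 0.439, edgeR). Mll1, the histone H3 lysine methyltransferase that maintains Hox expression, was at 217 ± 33.7 CPM in OgaVav-Cre and 301 ± 41.7 CPM in wildtype cells (SD, n = 3), a log2 fold change of -0.47 (adjusted p = 0.428, edgeR). Meis3 was higher, at 1.35 ± 0.534 against 0.585 ± 0.170 CPM (SD, n = 3) and a log2 fold change of 1.20 (adjusted p = 0.447, edgeR), though with 9 to 53 reads.

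The other TALE cofactors differed little. Pbx2, Pbx3, Pbxip1, Pknox1, Tgif1 and Tgif2 had log2 fold changes between -0.12 and 0.13, and all of their libraries overlapped. Meis2 and Pknox2 were too low for the test, with at most 9 and 10 reads in a library. Among the chromatin regulators Men1, the partner of Mll1, had -0.19 and Dot1l, a histone H3 methyltransferase found at active Hox genes, had -0.26, with genotypes that did not overlap but an unadjusted p above 0.05 in edgeR. Such a gap, with OgaVav-Cre lower, was found in 9.97% of all loci tested. Cdx2 and Cdx4, the caudal factors that activate Hox genes in embryonic blood, had no reads, and Cdx1 had 2 reads in 1 library. Of 7 other partners, among them the retinoic acid receptors, none had an unadjusted p below 0.05, and their median was -0.13.

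Between the Hox genes lie further loci, many of them non-coding RNAs read from the opposite strand. By coordinates 33 such loci were found, 13 in HoxA, 10 in HoxB, 2 in HoxC and 8 in HoxD, and those of HoxC and HoxD had 1 read in all. Of these loci 13 could be tested and 0 were called by edgeR, with 3 lower and 0 higher at an unadjusted p below 0.05, where 6.27% of all loci were lower and 4.38% higher. All 9 tested loci of HoxA had log2 fold changes below 0, where 49.5% of all loci did, with a median of -0.76, beside -0.47 for the 8 tested Hox genes of that cluster. They overlap each other and the Hox genes, and the counting of overlaps and the use of strand are not given in the sources used here, so the same reads may stand in both.

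The locus with the smallest p was the minus-strand locus of 2700086A05Rik, from 52160521 to 52163333 on chromosome 6, which lies between Hoxa6 and Hoxa7 and within the long Hoxa3 locus. It was at 3.33, 5.38 and 3.79 CPM for OgaVav-Cre and at 6.37, 11.3 and 11.6 CPM for wildtype. All OgaVav-Cre libraries were below all wildtype libraries, as in 9.97% of all loci. The log2 fold change was -1.23 with an error of 0.312 (standard error, edgeR, adjusted p = 0.396), and DESeq2 called the locus, with an adjusted p of 0.0365, as it did 0.527% of all loci. In the GENCODE annotation it overlaps an exon of Hoxa3 by 295 bases and an exon of Hoxa6 by 282 bases.

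The plus-strand locus of 5730596B20Rik, inside the Hoxa3 locus but on the other strand, had 32, 76 and 35 reads for OgaVav-Cre and 61, 147 and 101 for wildtype, with overlapping genotypes (log2 fold change -1.37, standard error 0.482, adjusted p = 0.428, edgeR). The plus-strand locus of 2700086A05Rik, which runs antisense across Hoxa3 to Hoxa7, had a log2 fold change of -0.21 (95% interval -0.72 to 0.31). In HoxB, the antisense locus Hoxb3os had 93 to 192 reads and -0.33 (95% interval -1.15 to 0.48). Gm11539, a locus of 557 bases between Hoxb13 and Hoxb9, had the most reads inside any cluster, 4170 to 7434. All OgaVav-Cre libraries (222 to 294 CPM) were above all wildtype libraries (187 to 216 CPM), as in 7.5% of all loci. Its means were 258 ± 36.2 and 206 ± 16.6 CPM (SD, n = 3), with a log2 fold change of 0.33 (adjusted p = 0.484, edgeR).

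**Figure D5:**
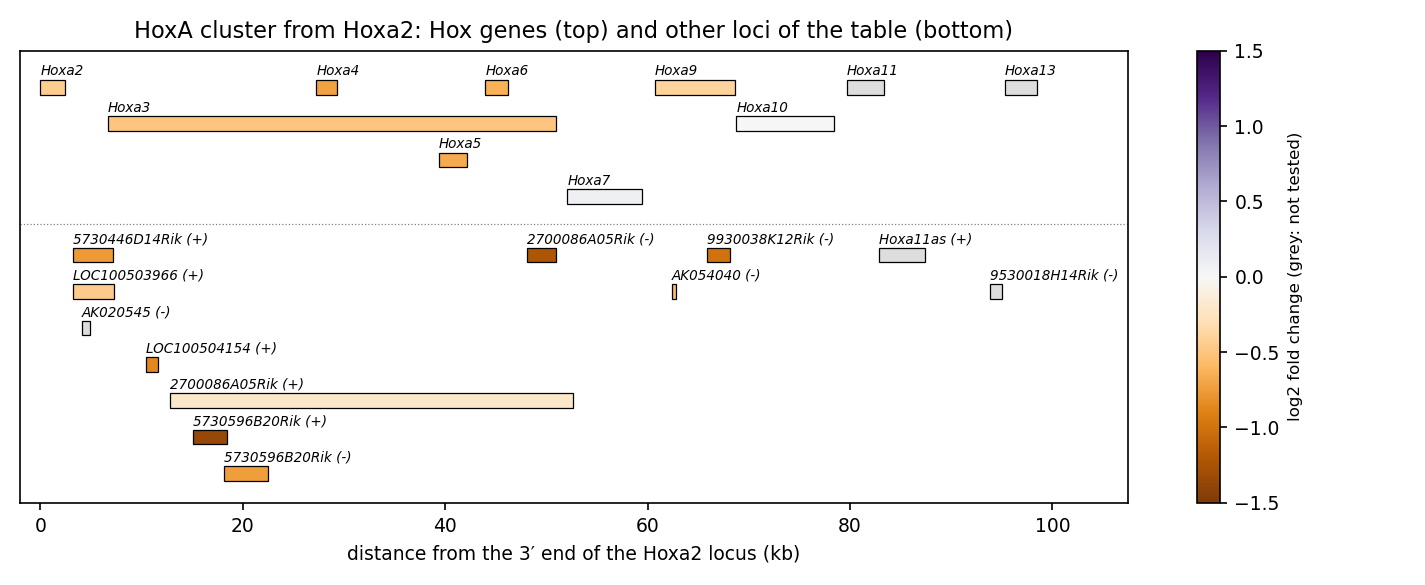
Map of the HoxA cluster to scale from Hoxa2, at the left, to Hoxa13, with 10 Hox genes above the dotted line and 12 other loci below it with their strand. Boxes are coloured by the log2 fold change of OgaVav-Cre over wildtype (edgeR), and loci too low to test are grey. No locus is called, the darkest boxes are the plus-strand locus of 5730596B20Rik (-1.37) and the minus-strand locus of 2700086A05Rik (-1.23), and the colours of Hoxa7 and Hoxa10 change sign with the scaling.

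The clusters also hold microRNA genes. Poly(A) RNA-Seq measures no mature microRNA, so only the loci that contain them can be given. Mir196b (chr6:52180080-52180164, minus strand) lies within both the Hoxa9 locus and 9930038K12Rik, a locus listed with 1 exon, from 52178246 to 52180531 on the same strand. 9930038K12Rik had 347, 286 and 222 reads for OgaVav-Cre and 289, 593 and 597 reads for wildtype. Wildtype replicate 1 was again within the OgaVav-Cre range, and the log2 fold change was -1.0 with an error of 0.342 (standard error, edgeR, adjusted p = 0.423).

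Mir10a (chr11:96178479-96178588, plus strand) lies inside the Hoxb4 locus, which had 215 to 319 reads. Mir196a-1, between Hoxb13 and Hoxb9, lies in a locus with at most 8 reads, and Mir10b lies in the span of Hoxd3 and Hoxd4, at most 2 reads. Their mature sequences (RefSeq, GRCm38.p6) are shown because the families share a seed, bases 2 to 8, printed in capitals.
miR-196b-5p: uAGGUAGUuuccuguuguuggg
miR-196a-5p: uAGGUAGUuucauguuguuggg
miR-10a-5p: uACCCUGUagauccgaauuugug
miR-10b-5p: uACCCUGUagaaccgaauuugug

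The miR-196 family is known for targeting Hox transcripts. The letters ACTACCT, the complement of its seed, were searched on the transcript strand after the coding part of the mm9 transcripts, with the longest such stretch for each gene. They occurred in 9 of 39 Hox genes (23.1%), against 5.72% of 19915 coding genes, and 0.321 times per kb against 0.0474. Hoxa7 had 4 matches, Hoxc8 had 3, and Hoxa4, Hoxa5, Hoxa9, Hoxb1, Hoxb6 and Hoxb7 had 1 each. In the more abundant genes the match with the most bases complementary to miR-196b-5p is given, with the seed match in capitals.
Hoxa9, 15 of 22 bases, chr6:52173899-52173920, minus strand: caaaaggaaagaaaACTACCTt
Hoxa7, 14 of 22 bases, chr6:52165209-52165230, minus strand: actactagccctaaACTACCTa
Hoxa5, 10 of 22 bases, chr6:52152117-52152138, minus strand: atatttttattcaaACTACCTa

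A match describes letters and not a site in use. Only the exact letters were counted, so a gene without a match, such as Hoxb8, may still hold an imperfect site. Of the genes with a match, Hoxa7 had the smallest standard error among the tested genes (0.185), with a log2 fold change near 0, and Hoxa9 and Hoxa5 had -0.39 and -0.67 as given above.

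The genes that flank the clusters had fold changes on both sides of 0. Evx1 and Evx2, homeobox genes at the 5′ ends of HoxA and HoxD, had no reads. Of 12 neighbours 10 could be tested, 5 were below and 5 above 0, the median log2 fold change was 0.0058 and none had an unadjusted p below 0.05 in edgeR. Skap2, beyond the 3′ end of HoxA, had 1314 to 2176 reads and a log2 fold change of 0.16, and Hibadh, beyond its 5′ end, had 1141 to 1638 reads and 0.02. In OgaVav-Cre replicate 3 the lowest level of its genotype was found in 3 of the 10, and in wildtype replicate 1 in 3 of the 10.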

How the data were processed

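Poly(A) RNA-Seq of LSK cells was analyzed for 3 OgaVav-Cre and 3 wildtype mice, grouped by their labels. Per the study's methods and processing notes, the authors sequenced single-end reads of 50 bases (CASAVA 1.8.2), mapped them on mm9, and obtained a read number for each locus from Genomatix software. The deposited counts are raw reads per locus, whole numbers for 53445 loci. The deposited RPKM follow, in the authors' table, from reads, locus length and 1 divisor per library. The authors' own log2 fold changes and p-values and their means per genotype were not used. A deposited normalized expression signal, for which no definition is given in the sources used here, was not used either.

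The main analysis used edgeR 4.0.16 in R 4.3.3 on raw reads (TMM scaling, filterByExpr with genotype as the group and a minimum count of 10, quasi-likelihood test) on all loci, of which 22032 were tested. The common biological coefficient of variation was 0.308. DESeq2 1.42.0, limma 3.58.1 (voom, and trend on log2 of RPKM plus 0.1 or 1), other scalings, other filters and each library left out in turn were alternatives, and the stem cell marker covariate was added after seeing the data. Levels between genes are TMM-scaled CPM per kb of locus length. The lengths are the deposited ones, and ranks and ratios between genes depend on them. The fits were tested on simulated data with known changes. These changes were all larger than those estimated for the tested Hox genes in the main analysis, so power at that size was not measured. The exact intervals of read ratios between genes and the floor of 3 reads cover counting error only. The intervals of the log2 fold changes come from the edgeR standard errors and also include the spread between mice. Replicates are separate mice. Transcripts and coordinates are from GENCODE vM1 on NCBIM37 (mm9), microRNAs from RefSeq. Figures were made with Python 3.11.15 and matplotlib 3.10.9.

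The Hox genes, the cofactor, regulator, neighbour and marker lists were chosen with earlier results of these data known. Every Hox gene enters the counts, and the tested ones are given with reads or CPM in all libraries. Of the cofactor and regulator lists, TALE members and 3 more with the smallest p are named, and of the other loci in the clusters the 5 with the most reads. The Cdx genes, Hlf, Cxcl12, Skap2, Hibadh, Evx1, Evx2 and 5730596B20Rik were named after their values were seen. Some items are not reported here by name, and the counts include them.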

Additional observations from a re-analysis of the deposited data

How the results depend on the processing

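No Hox gene, cofactor or regulator was called under any alternative setting, and no Hox gene with the added covariate, where the cofactors and regulators were not counted. Hoxa5 was the one gene at an unadjusted p below 0.05 in edgeR; with library totals in place of TMM there were 2 lower (Hoxa5 and Hoxb4), and that scaling moved the median of all loci to -0.11. With a library left out, the lower count ran from 0 to 3. It was 0 without OgaVav-Cre replicate 1 or 3 or wildtype replicate 2 or 3, and 3 without wildtype replicate 1. The higher count ran from 0 to 1 (Hoxc6, without OgaVav-Cre replicate 3, where it passed the filter only through its OgaVav-Cre reads). The median log2 fold change of the Hox genes stayed below 0 throughout, from -0.60 to -0.065, the latter without a filter on low counts, where 28 members entered. The signs of Hoxa7, Hoxa10 and Hoxb5 were not stable. With library totals they were -0.060, -0.11 and -0.12, with RPKM plus 0.1 they were -0.0077, -0.014 and -0.093, and with RPKM plus 1 they were -0.0065, -0.019 and -0.025. Hoxa10 was also at -0.0040 with the immunoglobulin loci left out and -0.0023 at a mean of at least 1 CPM, and Hoxb5 at -0.13 with limma-voom. With a library left out Hoxa7 ran from -0.053 to 0.23, Hoxa10 from -0.26 to 0.33, Hoxb5 from -0.40 to 0.50 and Meis1 from -0.44 to 0.018. With Hox loci that overlap no other Hox locus alone, Hoxa9 held 44.6% and HoxA 78.2% of the summed level. The causes were not tested. Over all loci 6 were called lower and 1 higher; without the filter these were 17 and 4 and with DESeq2 82 and 34, none was higher with library totals, without the immunoglobulin loci, at 1 CPM, with limma-voom or with either RPKM fit, and with a library left out there were 3 to 6 lower and 0 to 3 higher. DESeq2 called 1 other locus inside the clusters lower. Deviations of same-numbered libraries correlated at -0.081, 0.26 and 0.32, and those of differently numbered libraries between -0.38 and 0.21. Whether the replicate numbers pair the libraries cannot be settled from these values. With the replicate block 4 loci were lower and 2 higher, Hoxb5 was at -0.059, and 0 Hox genes were called. Genes with under 50 reads are limited by depth, and 3 mice for each genotype by the spread between mice.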
